A study of Mus musculus with 24 samples.

Results

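The cytochrome P450 genes of mouse colon were taken as all targets of the deposited gene table whose name is CYP followed by a family number, a subfamily letter and a gene number. There were 73 such genes among 18097 targets, and all 73 match a current mouse gene symbol of RefSeq, by which they are called here. Transcript levels had been measured in total RNA from colon of C57Bl/6 mice on 24 Illumina bead arrays. The groups were 6 arrays of ApcMin/+ colon (ApcMin from here on) after ATB-346 at 14.5 mg/kg, 6 of ApcMin colon after naproxen at 10 mg/kg, 8 of ApcMin colon after vehicle (DMSO in carboxymethylcellulose) and 4 of wild type colon after the same vehicle. ApcMin mice carry a truncating germline mutation on 1 of their Apc alleles in every cell, and Apc is a brake on Wnt signalling. Naproxen is a nonsteroidal anti-inflammatory drug that inhibits cyclooxygenases, and ATB-346 is a naproxen derivative that releases hydrogen sulfide. The mice were dosed by gavage once a day for 7 days from 6 weeks of age. Colon was collected at 14 weeks of age, which was 7 weeks after the last dose, so the arrays do not show the colon while the drugs were present.

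Cytochromes P450 are haem enzymes that put an oxygen atom from molecular oxygen into their substrates, and the microsomal ones take electrons from cytochrome P450 reductase, the product of Por. Members of families 1 to 3 mostly oxidise drugs and other foreign compounds, those of family 4 mostly hydroxylate fatty acids and leukotrienes, and most of the others make or break down sterols, steroid hormones, bile acids, vitamin D and retinoic acid. Several are switched on by foreign compounds through the receptors Ahr, Nr1i2 (the pregnane X receptor) and Nr1i3 (the constitutive androstane receptor). In humans, naproxen itself is demethylated by P450 enzymes of the CYP2C and CYP1A subfamilies. The gut lining carries a smaller set of P450 enzymes than the liver.

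A gene was called above background on an array when its signal lay over the 95th percentile of 1257 smell, taste and pheromone receptor targets on that array, since colon is taken to lack most of them. These lines lay between 6.17 and 6.27 on the log2 scale of normalized signal, and all levels below are on this scale. Of the 73 P450 genes, 23 lay above background on all 24 arrays, 16 on some arrays and 34 on none. Of the 16840 targets other than chemoreceptors, 54.2% lay above the line on all arrays and 23.9% on none. A gene under the line was not detectable by its probe, which does not show that its RNA was absent. Levels of different genes come from different probes and were not set against each other.

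Among families 1 to 3, 14 of 45 genes lay above background on all arrays and 24 on none. The 14 were Cyp2c55, Cyp2c65 and Cyp2c67 of the arachidonic acid and drug oxidising Cyp2c subfamily; Cyp2d9, Cyp2d10, Cyp2d12, Cyp2d22, Cyp2d26, Cyp2d34 and Cyp2d40, the mouse relatives of human CYP2D6; Cyp2e1, which oxidises ethanol and acetone; Cyp2j9, an arachidonic acid oxidising enzyme; Cyp2s1, an epithelial P450; and Cyp3a13, an intestinal member of the main drug oxidising subfamily. The subfamilies differed in how many of their members were detected. In Cyp2d 7 of 8 genes lay above the line on all arrays, against 3 of 11 in Cyp2c, 1 of 5 in Cyp2j, 1 of 5 in Cyp3a and 0 of 5 in Cyp2b. The other 8 Cyp2c genes (Cyp2c29, Cyp2c37, Cyp2c38, Cyp2c39, Cyp2c40, Cyp2c50, Cyp2c68 and Cyp2c70) lay above it on none. Cyp1a1 and Cyp1a2, the textbook targets of Ahr, were above the line on none, and Cyp1b1 on 7 arrays. Cyp2b10 and Cyp3a11, the usual mouse readouts of Nr1i3 and Nr1i2, were above it on 1 and 3 arrays. Cyp2f2, which activates naphthalene in mouse lung, was above it on 20 arrays. Cyp3a25 was above it on 10 arrays and the liver gene Cyp2a12 on 2. Cyp2d13, which was not found among the protein-coding genes of RefSeq, was above it on 8. Those above it on none also included Cyp2a5, which oxidises nicotine and coumarin, the olfactory gene Cyp2g1, the fatty acid hydroxylase Cyp2u1, and Cyp2b9, Cyp2b13, Cyp2b19, Cyp2b23, Cyp2j5, Cyp2j6, Cyp2j11, Cyp2j13, Cyp3a16 and Cyp3a44. Near-identical neighbours within Cyp2c and Cyp2d may share signal on 1 probe, so the identity of a single detected member is uncertain there.

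In family 4, 5 of 11 genes lay above background on all arrays: Cyp4b1, which hydroxylates fatty acids and activates plant furans; Cyp4f13, Cyp4f14 and Cyp4f16, of the subfamily that inactivates leukotriene B4; and Cyp4v3, a fatty acid hydroxylase. Cyp4f18, a leukotriene hydroxylase of myeloid cells, was above the line on 23 arrays, and Cyp4f15 and Cyp4f39 on 4 arrays each. Cyp4a14 and Cyp4a31, of the subfamily that responds to Ppara in liver, and Cyp4x1 were above it on none. Of the 17 genes in other families, 4 lay above it on all arrays. They were Cyp27a1, the sterol hydroxylase that starts the acidic route of bile acid synthesis; Cyp7b1 and Cyp39a1, which hydroxylate oxysterols; and Cyp20a1, whose substrate is not known. Cyp7a1, the rate-limiting enzyme of the classic bile acid route, was above it on none, as were the steroid genes Cyp11b1, Cyp17a1, Cyp19a1 and Cyp21a1, the brain cholesterol hydroxylase Cyp46a1, and the vitamin D activating gene Cyp27b1. The other vitamin D activating gene, Cyp2r1, counted above among families 1 to 3, was also above it on none. Cyp24a1, which inactivates vitamin D, was above the line on 12 arrays with a highest level of 6.39. Cyp26a1 and Cyp26b1, which break down retinoic acid, were above it on 4 arrays each. Cyp11a1, which starts steroid synthesis, was above it on 6 arrays, the aldosterone synthase gene Cyp11b2 on 7 and the bile acid gene Cyp8b1 on 2, with highest levels of 6.37, 6.37 and 6.33.

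**Figure D1:**
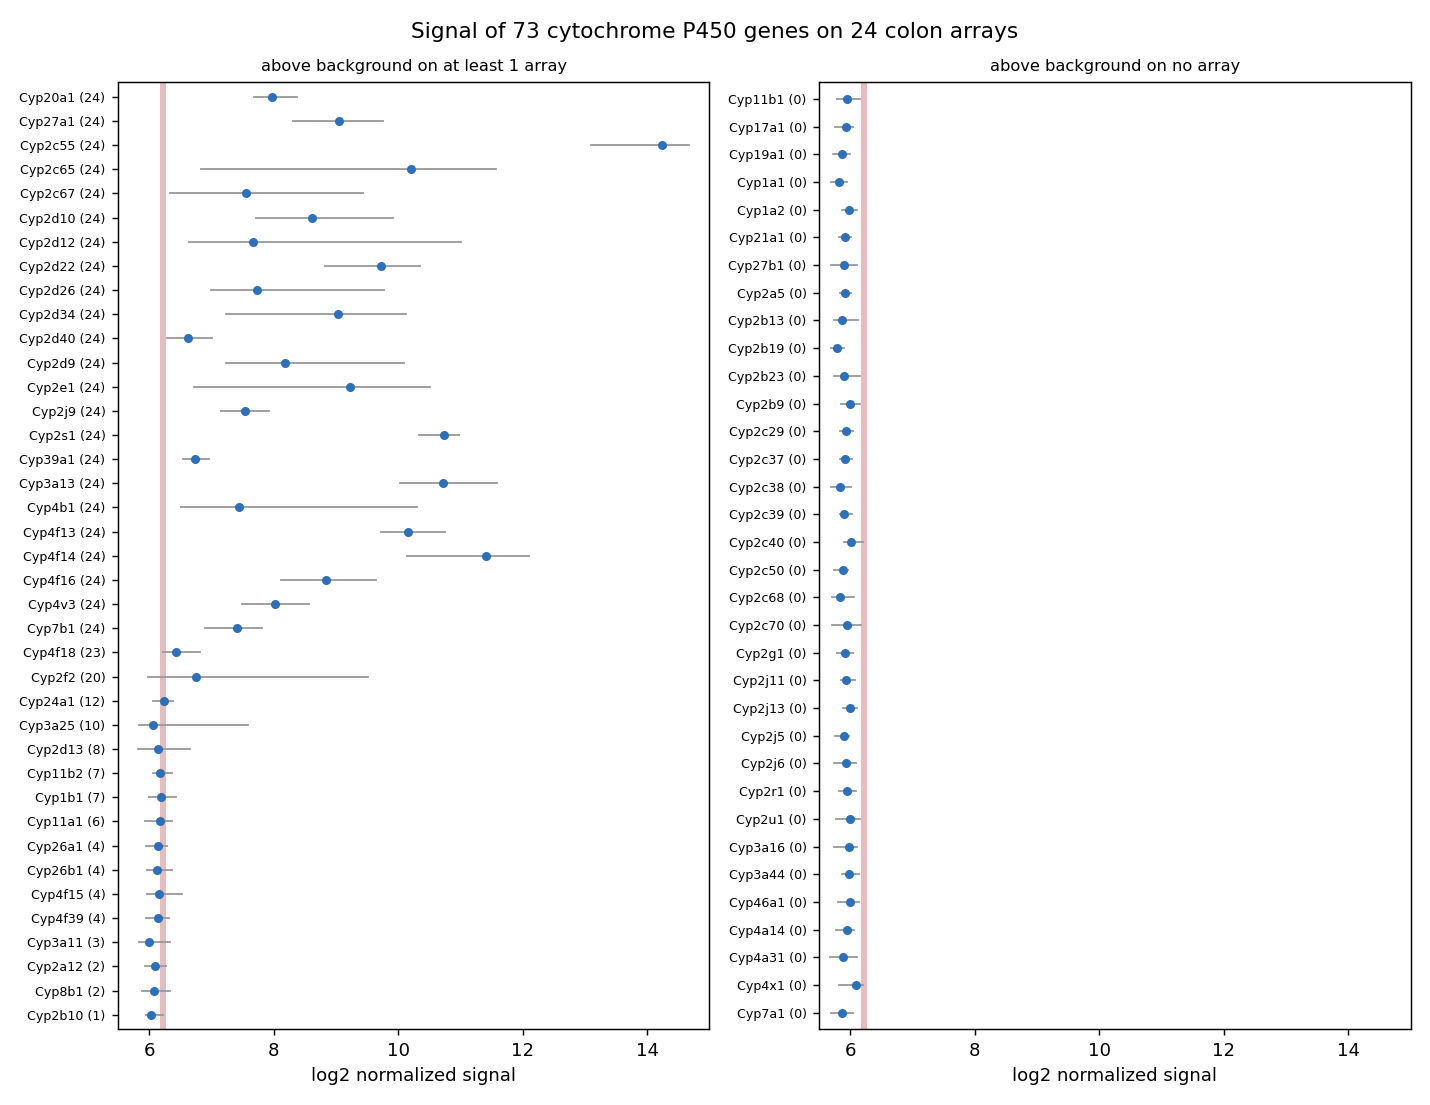
Log2 normalized signal of the 73 P450 genes; the point is the median and the line the range over the 24 arrays, the number after each name is the number of arrays above background, and the band is the range of the 24 background lines (6.17 to 6.27). The 23 genes above background on all arrays stand at the top left, and the 34 genes at right stay at or under the band.

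The tissue label was checked against markers. Of 9 measured colon epithelium markers, 7 lay above background on all 24 arrays, and the log2 of their summed signal ran from 15.69 to 16.22 on ATB-346, 15.60 to 15.99 on naproxen, 15.68 to 16.02 on vehicle and 15.73 to 15.98 on wild type arrays. A summed signal follows the brightest markers. After naproxen 6 of the 7 tested epithelium markers were lower than after vehicle (median -0.08), 1 at an unadjusted limma p under 0.05, against 2.91% of targets. Aqp8 had medians of 9.59 on naproxen and 11.99 on vehicle arrays. After ATB-346 3 were higher and 4 lower than after vehicle, with 0 at that p. Of 10 liver markers, 1 lay above background on all arrays, the transthyretin gene Ttr, and the liver-defining genes Alb and Ahsg lay above it on 0 arrays. Apoa2 lay above it on 6 of 6 ATB-346, 5 of 6 naproxen, 7 of 8 vehicle and 4 of 4 wild type arrays, and Fgg on 3 of 6, 6 of 6, 4 of 8 and 2 of 4. The log2 of the summed liver list ran from 9.73 to 11.62 on ATB-346, 9.60 to 11.46 on naproxen, 9.65 to 11.84 on vehicle and 10.16 to 11.69 on wild type arrays. Of 9 measured pancreatic acinar markers 1 lay above background on all arrays, and the log2 of their summed signal ran from 9.29 to 9.45 on ATB-346, 9.39 to 13.29 on naproxen, 9.38 to 17.38 on vehicle and 9.33 to 9.68 on wild type arrays. The 9 tested acinar markers were all lower after ATB-346 than after vehicle and all higher in ApcMin vehicle than in wild type at an unadjusted p under 0.05 (medians -3.19 and 2.99), and all 9 were lower after naproxen than after vehicle, 6 at that p (median -2.09). Limma called 0 of them. The part of the liver and acinar lists in the P450 values was not tested. Before normalization the array medians ran from 81.4 to 102.9 units of intensity. Replicates numbered 5 and up exist for 2 ATB-346, 2 naproxen and 4 vehicle arrays and for no wild type array, and 37.1% of the 9048 tested targets differed between numbers 5 and up and 1 to 4 (limma, adjusted p under 0.05). Of 24 tested P450 genes 1 did, Cyp20a1, which was higher by 0.24 ± 0.06 (SE; limma adjusted p = 0.00553). The labels do not say what the number ranges stand for, so values with the range as a block are given beside the results they move.

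The detected Cyp2c genes lie in 1 gene cluster on chromosome 19, where all 11 Cyp2c genes of the array map. Cyp2c55 and Cyp2c65 are neighbouring coding genes there. Their promoters, and those of Cyp2c67 and Cyp2f2, are shown because the first 2 genes were high on the same arrays and the other 2 were low on them. Each sequence runs 5′ to 3′ on the gene's strand, from 250 bases before to 50 bases after its start, from RefSeq in build GRCm38.p6. Capitals mark matches, on either strand, to TATAAA (the letters of a TATA box) or AGGTCA (a nuclear receptor half-site). Matches were marked wherever they lay, so a TATAAA far from the start need not serve as a TATA box.
Cyp2c65: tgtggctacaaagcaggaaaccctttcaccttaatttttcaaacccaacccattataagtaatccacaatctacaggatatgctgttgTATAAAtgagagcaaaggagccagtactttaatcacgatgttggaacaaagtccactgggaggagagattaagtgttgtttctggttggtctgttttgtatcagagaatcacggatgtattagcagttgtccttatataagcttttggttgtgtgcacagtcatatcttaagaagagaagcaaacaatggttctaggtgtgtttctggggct
Cyp2c55: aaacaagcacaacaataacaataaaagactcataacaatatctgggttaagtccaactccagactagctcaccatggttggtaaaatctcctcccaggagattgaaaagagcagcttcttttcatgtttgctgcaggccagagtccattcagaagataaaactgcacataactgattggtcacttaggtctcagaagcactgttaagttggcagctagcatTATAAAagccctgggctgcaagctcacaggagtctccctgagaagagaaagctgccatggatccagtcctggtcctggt
Cyp2c67: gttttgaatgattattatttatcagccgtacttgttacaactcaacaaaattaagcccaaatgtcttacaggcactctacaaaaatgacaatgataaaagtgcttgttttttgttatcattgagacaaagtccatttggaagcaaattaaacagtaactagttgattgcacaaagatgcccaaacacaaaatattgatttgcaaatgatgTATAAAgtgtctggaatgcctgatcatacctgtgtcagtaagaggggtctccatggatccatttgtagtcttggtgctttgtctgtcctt
Cyp2f2: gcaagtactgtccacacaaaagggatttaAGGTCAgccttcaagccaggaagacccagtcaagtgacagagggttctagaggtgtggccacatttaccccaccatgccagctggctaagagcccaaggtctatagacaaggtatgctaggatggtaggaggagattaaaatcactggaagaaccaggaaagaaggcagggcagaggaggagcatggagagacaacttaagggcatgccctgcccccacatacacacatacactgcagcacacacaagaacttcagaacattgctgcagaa
They lie at chr19:39060756-39061055 on the plus strand, chr19:39006769-39007068 on the plus strand, chr19:39648993-39649292 on the minus strand and chr7:27119705-27120004 on the plus strand. The 3 Cyp2c promoters each hold 1 TATAAA, and the Cyp2f2 promoter holds 1 AGGTCA. RefSeq promoters were matched for 56 of the 73 genes and for 18 of the 23 genes above background on all arrays. TATAAA was present in 44.4% of those 18 and in 40% of the 25 promoters of genes above background on no array, against 13.6% of all 32851 promoters. AGGTCA was present in 5.56% (1 of 18) and 44% (11 of 25) of these sets, against 16.3% of all promoters. GCGTG, the core of the Ahr response element, was present in 27.8% and 20%, against 32.4%, and GTTAAT, an HNF1 half-site, in 5.56% and 12%, against 7.1%. The 4 motifs were searched separately on both strands, and a match describes these letters only. The sets were not compared by a test, and promoters of neighbouring genes of a subfamily are not separate observations.

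For the comparisons, 24 P450 genes had a mean level over the filter (log2 6.54) and were tested with limma among 9048 targets: the 23 above background on all arrays and Cyp2f2. Cyp4f18 was not tested. Of these 24 genes, 10 (41.7%) ranged over more than 2 log2 units across the 24 arrays, as did 3.47% of all tested targets. The median range was 1.57 for the P450 genes and 0.66 for all tested targets. The labels do not say that replicates came from separate animals, so p-values measure the spread between these samples. In whole colon, fewer cells of a type and less RNA per cell cannot be told apart.

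ATB-346 against vehicle asked whether P450 transcripts still differed 7 weeks after the hydrogen sulfide releasing drug. None of the detected P450 genes passed the test. Limma called 0 of 24 at an adjusted p under 0.05, as it did 0% of 9048 targets, and 1 of 24 had an unadjusted p under 0.05, against 6.98% of targets. The median difference was 0.08 over the P450 genes, of which 16 were higher and 8 lower, and 0.01 over all tested targets, of which 55.4% were higher. In numbers 1 to 4 alone 11 P450 genes were higher and 13 lower (median -0.04), and in numbers 5 and up 23 were higher and 1 lower (median 0.34). Of all tested targets 52.3% and 53.4% were higher in these ranges. Numbers 5 and up hold 2 ATB-346 and 4 vehicle arrays, and 0 of 24 genes had an unadjusted limma p under 0.05 there. The genes vary together, so their directions are not separate observations. The gene with the unadjusted p was Cyp2s1. Its lowest, median and highest levels were 10.58, 10.85 and 10.96 on the 6 ATB-346 arrays, 10.55, 10.78 and 10.97 on the 6 naproxen arrays and 10.43, 10.55 and 10.87 on the 8 vehicle arrays, and wild type arrays 1 to 4 had 10.33, 10.64, 10.61 and 10.82. On 5 of 6 ATB-346 arrays it lay above the vehicle mean, but the groups overlapped, since vehicle arrays 4 and 6 were above the ATB-346 median. The difference was 0.22 ± 0.09 (SE; 95% interval 0.03 to 0.40; unadjusted p = 0.0259, limma adjusted p = 0.612). With the number range as a block it was 0.21 (limma adjusted p = 0.317). The largest differences in size belonged to genes with wide intervals. Cyp4b1 differed by 0.63 (95% interval -0.72 to 1.98) and Cyp2c65 by 0.47 (-1.23 to 2.16), while Cyp2f2 differed by -0.41 (-1.72 to 0.91). With 1 array left out at a time these values ran from 0.19 to 0.95 for Cyp4b1 (lowest without ATB-346 array 5, highest without vehicle array 4), from 0.10 to 1.05 for Cyp2c65 (lowest without ATB-346 array 5, highest without ATB-346 array 4) and from -0.81 to -0.18 for Cyp2f2 (without ATB-346 array 4 and vehicle array 1). In numbers 1 to 4 and 5 and up alone Cyp2f2 differed by -0.96 and 0.11. The intervals include 0 and also include changes of over 1 log2 unit, so differences of that size are neither shown nor bounded here.

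Naproxen against vehicle gave the larger P450 differences, in both directions, and again 0 of 24 genes were called by limma (0% of targets). An unadjusted p under 0.05 was found for 3 genes, all lower after naproxen, against 8.73% of targets in either direction and 2.91% lower. The median absolute difference was 0.31 over the 24 genes and 0.08 over all tested targets. The genes higher on naproxen arrays were led by Cyp2c65 and Cyp4b1, and those lower by Cyp2d12, Cyp2f2, Cyp2d34, Cyp2c67 and Cyp2d9.

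Cyp2c65, an intestinal arachidonic acid oxidising enzyme, had a lowest, median and highest level of 6.84, 9.70 and 11.57 on ATB-346 arrays, 9.09, 11.26 and 11.54 on naproxen arrays and 6.93, 9.23 and 11.57 on vehicle arrays. Wild type arrays 1 to 4 had 8.69, 7.09, 7.85 and 11.28. All naproxen arrays except number 3 lay above 10, while the other 3 groups each held arrays above 11 and below 8, so the groups overlapped. The difference of naproxen from vehicle was 1.58 ± 0.82 (SE; 95% interval -0.11 to 3.27; limma adjusted p = 0.589). With the number range as a block it was 1.74 (unadjusted p = 0.0428, limma adjusted p = 0.4). Its neighbour Cyp2c55, which makes hydroxylated products of arachidonic acid, averaged 14.03 ± 0.55 on ATB-346, 14.33 ± 0.44 on naproxen, 13.85 ± 0.65 on vehicle and 13.63 ± 0.61 on wild type arrays (SD). It differed by 0.48 between naproxen and vehicle (95% interval -0.12 to 1.08).

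Cyp2c67, another member of the cluster, went the other way. Its lowest, median and highest levels were 6.57, 7.72 and 9.10 on ATB-346 arrays, 6.34, 6.65 and 8.41 on naproxen arrays and 6.53, 7.83 and 9.43 on vehicle arrays, and 8.29, 8.49, 8.19 and 6.99 on wild type arrays 1 to 4. All naproxen arrays except number 3 lay under 7, as did ATB-346 array 1, vehicle array 4 and wild type array 4, so the groups overlapped. The difference of naproxen from vehicle was -0.95 ± 0.45 (SE; unadjusted p = 0.0452, limma adjusted p = 0.564). The gene has 2 probes, of which 1 lay above background on all 24 arrays and differed by -1.19, and the other lay above it on 0 arrays, so the gene value averages a detected probe with one at background.

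**Figure D2:**
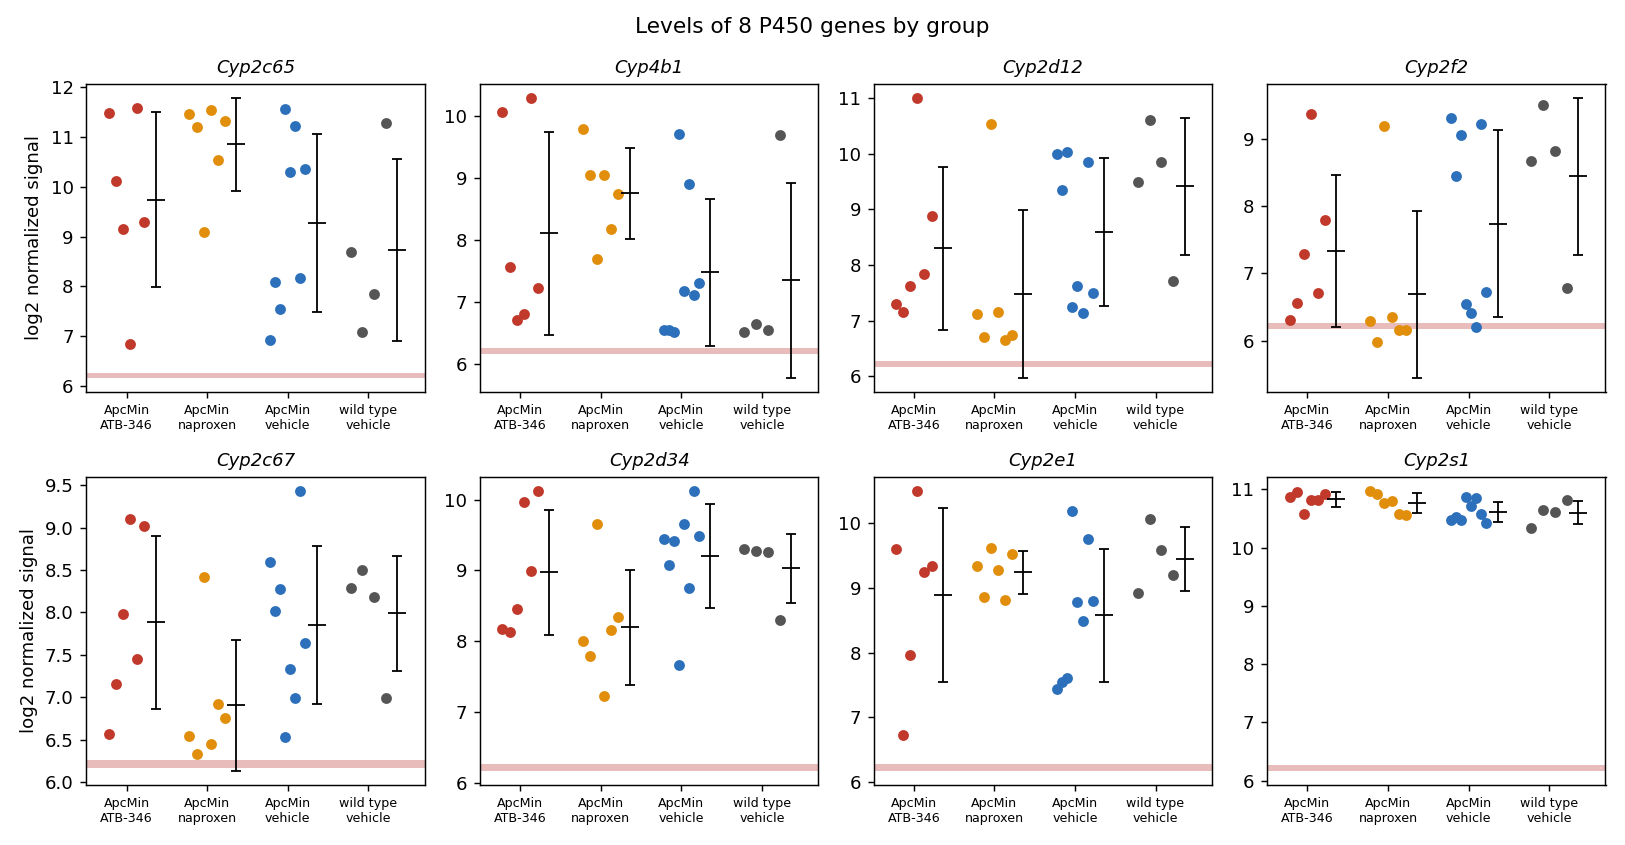
Log2 normalized signal of 8 P450 genes on each array (points), with the mean ± SD of each group beside its points, and the band of background lines (6.17 to 6.27); the vertical scales differ and do not start at 0. For Cyp2d12, Cyp2f2 and Cyp2c67 naproxen array 3 stands above the other 5, and for Cyp2c65 and Cyp4b1 wild type array 4 stands above the other 3.

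Of the Cyp2d genes on chromosome 15, Cyp2d34, Cyp2d9 and Cyp2d12 were lower on 5 of 6 naproxen arrays than the vehicle mean. Cyp2d34 had a lowest, median and highest level of 8.13, 8.72 and 10.12 on ATB-346 arrays, 7.23, 8.08 and 9.65 on naproxen arrays and 7.66, 9.43 and 10.12 on vehicle arrays, and 9.30, 9.27, 9.26 and 8.29 on wild type arrays 1 to 4. All naproxen arrays except number 3 lay under every vehicle array but number 4. The difference was -1.01 ± 0.39 (SE; 95% interval -1.81 to -0.20; unadjusted p = 0.0166, limma adjusted p = 0.564). Cyp2d9, a steroid hydroxylase of male mouse liver, had 7.82, 8.18 and 10.09 on ATB-346 arrays, 7.24, 7.47 and 9.79 on naproxen arrays and 7.91, 8.73 and 9.94 on vehicle arrays, and 9.18, 9.35, 9.04 and 8.06 on wild type arrays 1 to 4. Naproxen array 3 and ATB-346 arrays 4 and 6 were among its highest, and the other naproxen arrays, except number 1, lay under every vehicle array. It differed by -0.90 ± 0.45 (SE; unadjusted p = 0.0549, limma adjusted p = 0.576). With the number range as a block its unadjusted p was 0.0343 and its limma adjusted p 0.391.

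Cyp2d12 had a lowest, median and highest level of 7.15, 7.73 and 11.01 on ATB-346 arrays, 6.65, 6.94 and 10.53 on naproxen arrays and 7.14, 8.49 and 10.04 on vehicle arrays. Wild type arrays 1 to 4 had 9.49, 10.60, 9.85 and 7.70. The vehicle arrays split into 4 above 9 and 4 under 8, and naproxen array 3 and ATB-346 array 4 stood apart from their groups. It differed by -1.10 between naproxen and vehicle, with an interval that includes 0 (-2.56 to 0.36), and by -1.71 without naproxen array 3 (limma adjusted p = 0.277). Cyp2d10 and Cyp2d40 differed by -0.35 and -0.06, and Cyp2d22 and Cyp2d26 by 0.04 and 0.68 (limma adjusted p = 0.664 for Cyp2d26). Without naproxen array 3 the difference of Cyp2d10 was -0.64.

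Cyp2f2, the naphthalene oxidising P450, had a lowest, median and highest level of 6.30, 7.00 and 9.37 on ATB-346 arrays, 5.97, 6.22 and 9.20 on naproxen arrays and 6.21, 7.59 and 9.32 on vehicle arrays. Wild type arrays 1 to 4 had 8.68, 9.51, 8.83 and 6.78. It lay near background on all naproxen arrays but number 3, and its vehicle arrays split into 4 above 8 and 4 under 7. The difference was -1.05 ± 0.64 (SE; limma adjusted p = 0.629), and -1.56 without naproxen array 3. It lay under the background line on 4 arrays, where its level is only an upper bound. Cyp4b1 had 6.71, 7.40 and 10.30 on ATB-346 arrays, 7.71, 8.90 and 9.79 on naproxen arrays and 6.52, 7.15 and 9.71 on vehicle arrays, and 6.52, 6.65, 6.56 and 9.70 on wild type arrays 1 to 4. All 6 naproxen arrays lay above the vehicle mean, but vehicle arrays 4 and 6 were as high as most of them, and ATB-346 arrays 1 and 5 were the highest of all 24. It differed by 1.27 ± 0.65 between naproxen and vehicle (SE; 95% interval -0.08 to 2.62; limma adjusted p = 0.589).

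A pair of genes with narrower ranges also had small p-values. Cyp39a1, an oxysterol hydroxylase of bile acid synthesis, had a lowest, median and highest level of 6.65, 6.78 and 6.87 on ATB-346 arrays, 6.54, 6.57 and 6.78 on naproxen arrays and 6.59, 6.78 and 6.96 on vehicle arrays, and 6.65, 6.67, 6.95 and 6.71 on wild type arrays 1 to 4. All 6 naproxen arrays lay under the vehicle mean, and arrays 2, 4, 5 and 6 lay just under the lowest vehicle array. The difference was -0.16 ± 0.06 (SE; unadjusted p = 0.0171, limma adjusted p = 0.564), and -0.24 on the 1 of its 2 probes that lay above background on all arrays. Cyp4f16, of the leukotriene hydroxylase subfamily, had 8.75, 8.90 and 9.64 on ATB-346 arrays, 8.13, 8.39 and 9.16 on naproxen arrays and 8.40, 8.80 and 9.42 on vehicle arrays, and 9.05, 9.38, 9.11 and 8.76 on wild type arrays 1 to 4. Naproxen arrays 4, 5 and 6 lay under every vehicle array, and naproxen arrays 1, 2 and 3 among them. It differed by -0.35 ± 0.17 between naproxen and vehicle (SE; limma adjusted p = 0.576), and by -0.40 with the number range as a block (unadjusted p = 0.0237, limma adjusted p = 0.378).

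With the number range as a block, limma called 0 of 24 P450 genes in this comparison and 5 had an unadjusted p under 0.05 (Cyp2c65 higher, Cyp2d34, Cyp2d9, Cyp39a1 and Cyp4f16 lower), against 12.4% of targets. In ATB-346 against vehicle limma then called 0 of 24 and 0.309% of targets, and 1 (Cyp2s1) had an unadjusted p under 0.05, against 13.4% of targets. In ATB-346 against naproxen it was 1 (Cyp4f16), against 10.5%, and in the genotype comparison 0, against 4.71%. The drug effect was also tested for a difference between numbers 5 and up and numbers 1 to 4. Limma called 0 of 24 P450 genes for naproxen (0% of targets; 2 with an unadjusted p under 0.05, Cyp20a1 and Cyp2s1) and 0 of 24 for ATB-346 (0% of targets; 0 with an unadjusted p under 0.05).

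ATB-346 was set against naproxen, its parent compound, at the doses given, which differ in mg/kg. Limma called 0 of 24 P450 genes (0% of targets), and 1 had an unadjusted p under 0.05, against 6.48% of targets. The gene was Cyp4f16, which was higher by 0.52 ± 0.19 after ATB-346 (SE; 95% interval 0.13 to 0.90; unadjusted p = 0.0108, limma adjusted p = 0.726). All 6 ATB-346 arrays lay above the naproxen mean, and its 3 probes differed by 0.49, 0.50 and 0.52. Cyp2c67 differed by 0.98 (95% interval -0.01 to 1.97), Cyp2d34 by 0.78 (-0.08 to 1.64) and Cyp2c65 by -1.11 (-2.92 to 0.70). The p-values do not show that the drugs act alike on these genes, since the intervals reach beyond 1 log2 unit. Both drugs are compared with the same vehicle arrays, so their differences from vehicle are not independent of each other.

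**Figure D3:**
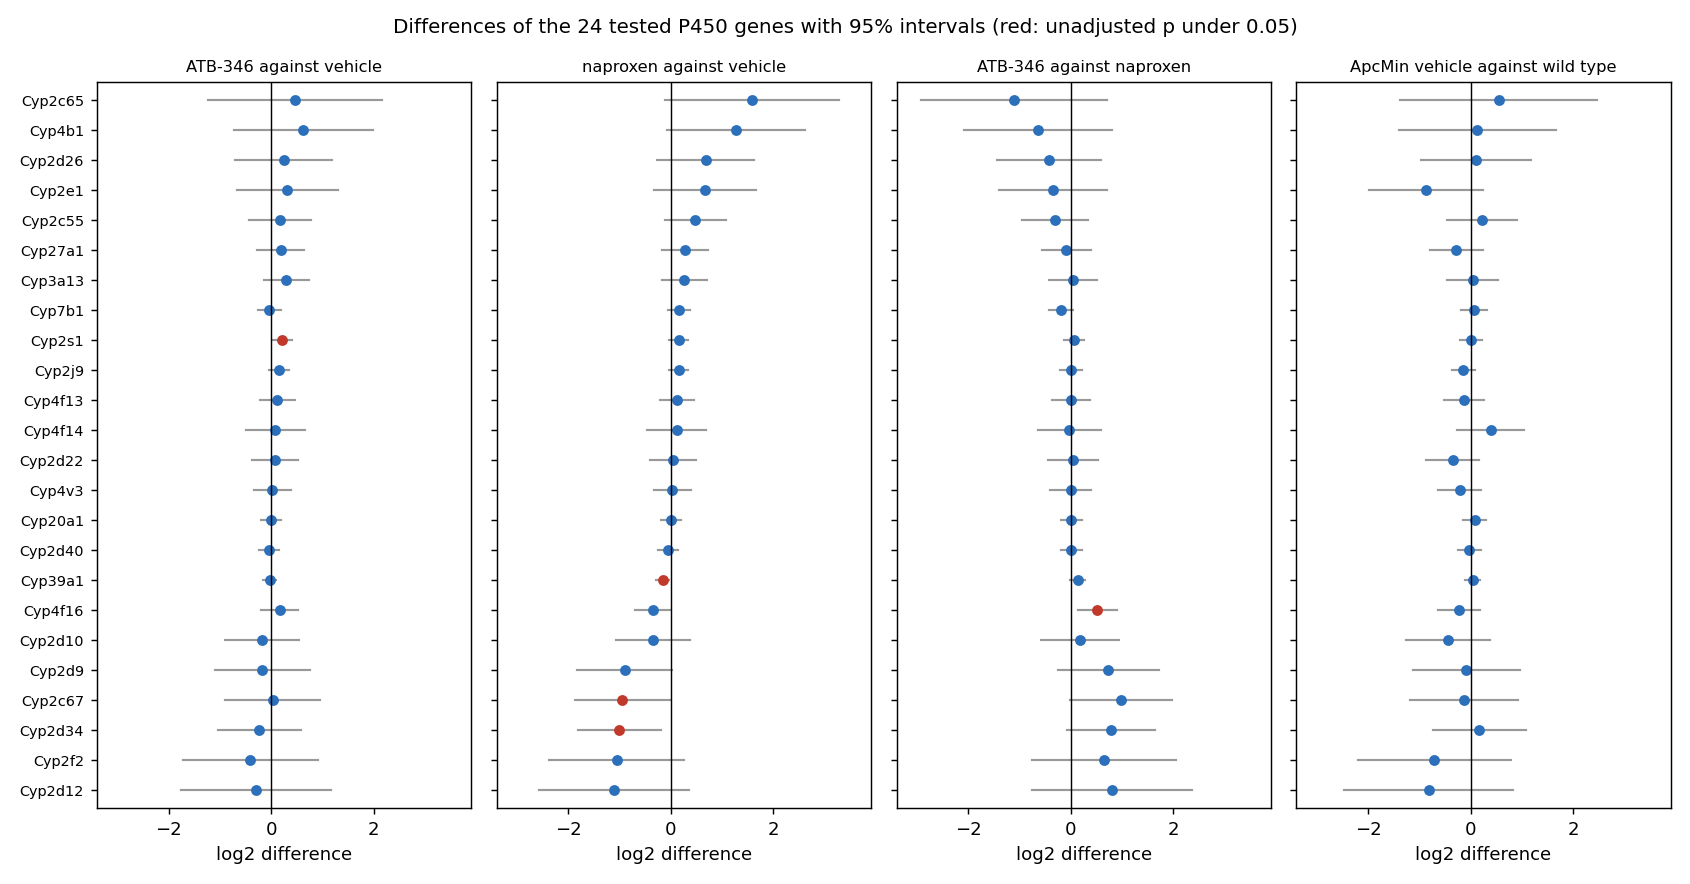
Log2 difference of each tested P450 gene (rows) in the 4 comparisons (panels), with its 95% interval from limma; positive values mean higher in the group named first. Red points have an unadjusted p under 0.05 (1 gene in the first panel, 3 in the second, 1 in the third, 0 in the last), and 0 genes were called after adjustment.

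ApcMin vehicle against wild type asked what the Apc mutation itself goes with. Limma called 0 of 24 P450 genes (0% of targets), and 0 had an unadjusted p under 0.05, against 6.43% of targets. The largest difference was that of Cyp2e1, the ethanol oxidising P450. It had a lowest, median and highest level of 6.72, 9.29 and 10.51 on ATB-346 arrays, 8.82, 9.31 and 9.62 on naproxen arrays and 7.44, 8.64 and 10.19 on vehicle arrays, and 8.93, 10.08, 9.58 and 9.20 on wild type arrays 1 to 4. All vehicle arrays except numbers 4 and 7 lay under every wild type array, and the ATB-346 and naproxen arrays overlapped both groups. The difference was -0.87 ± 0.54 (SE; 95% interval -1.99 to 0.25; limma adjusted p = 0.737), and -1.11 with the number range as a block. With the replicate number as a block it was -1.21 (unadjusted p = 0.0426, limma adjusted p = 1).

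Wild type array 4 moved several genotype differences by over 1.5 times. Without it the difference of Cyp4b1 was 0.91, against 0.13 with it, and that of Cyp2c65 was 1.40, against 0.55 (0.00 without wild type array 2). For Cyp2d12 it was -1.39 without the array and -0.82 with it, and for Cyp2f2 it was -1.26 and -0.71. With the number range as a block the differences were 0.07 for Cyp2c65, -0.42 for Cyp2d12 and -0.31 for Cyp2f2. In numbers 1 to 4 alone, the only numbers wild type has, they were -0.19, -0.25 and -0.10. The genotype difference of Cyp4b1 changed sign in 8 of 34 alternatives, and its lowest value with 1 array left out was -0.19. None of these differences passed the test.

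The remaining tested P450 genes had intervals that included 0 in all 4 comparisons. Cyp3a13, the intestinal drug oxidising P450, averaged 10.96 ± 0.46 on ATB-346, 10.92 ± 0.31 on naproxen, 10.66 ± 0.40 on vehicle and 10.62 ± 0.52 on wild type arrays (SD). It lay above the vehicle mean on 5 of 6 ATB-346 and 5 of 6 naproxen arrays, with differences of 0.30 (95% interval -0.14 to 0.74) and 0.26 (-0.18 to 0.70). Cyp4f14 averaged 11.45 ± 0.62, 11.48 ± 0.30, 11.37 ± 0.56 and 10.98 ± 0.66 in the same groups, and it exceeded the wild type mean on 7 of 8 vehicle arrays (difference 0.39, 95% interval -0.26 to 1.04; 0.13 without wild type array 2 and 0.67 without wild type array 4). Cyp27a1, the sterol hydroxylase, averaged 9.11 ± 0.49, 9.19 ± 0.36, 8.92 ± 0.43 and 9.20 ± 0.42. Its partner in the acidic bile acid route, Cyp7b1, lay under the naproxen mean on all 6 ATB-346 arrays (difference -0.19, 95% interval -0.43 to 0.05). Cyp2j9 lay above the vehicle mean on all 6 naproxen arrays, with a difference of 0.15 (95% interval -0.04 to 0.34). Cyp2d22 lay above the wild type mean on 1 of 8 vehicle arrays (difference -0.35, 95% interval -0.87 to 0.16). Cyp20a1 averaged 8.00 ± 0.10, 7.99 ± 0.26, 7.99 ± 0.14 and 7.92 ± 0.17 on ATB-346, naproxen, vehicle and wild type arrays, Cyp4f13 averaged 10.24, 10.24, 10.12 and 10.25, and Cyp4v3 averaged 7.99, 8.00, 7.97 and 8.18.

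The wide ranges were shared between P450 genes array by array, and with Osr2, a zinc finger transcription factor gene from the list for position along the colon. Osr2 had a lowest, median and highest level of 7.56, 9.28 and 12.89 on ATB-346 arrays, 10.63, 12.45 and 12.80 on naproxen arrays and 6.64, 9.61 and 12.89 on vehicle arrays, and 6.60, 7.23, 6.84 and 13.00 on wild type arrays 1 to 4. Of the 7 measured genes of that list 3 lay above background on all arrays, and the log2 of their summed signal ran from 9.67 to 13.10 on ATB-346, 11.29 to 13.06 on naproxen, 9.64 to 13.12 on vehicle and 9.48 to 13.21 on wild type arrays. Of the 3, 2 were higher, Osr2 among them, and 1 lower after naproxen than after vehicle at an unadjusted p under 0.05. Limma called 0 of them. The list thus went in both directions, and what follows concerns Osr2 alone, not the list.

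Osr2 (OSR2 on the array) lay at 11.60 or more on 10 arrays, namely ATB-346 arrays 1 and 5, all naproxen arrays except number 3, vehicle arrays 4 and 6 and wild type array 4. Cyp4b1 lay at 8.19 to 10.30 on these 10 and at 6.52 to 7.71 on the other 14, and Cyp2c65 at 10.54 to 11.57 and at 6.84 to 10.36. The same 10 arrays were those on which Cyp3a25, a Cyp3a gene known from mouse liver and intestine, lay above background, at 6.53 to 7.59. Of the 25 P450 genes above background on all arrays of at least 1 group, 4 (Cyp2c55, Cyp2c65, Cyp2d26 and Cyp4b1) lay on the same side of their own median as Osr2 on 22 of 24 arrays. Another 5, namely Cyp2c67, Cyp2d34, Cyp2d9, Cyp2f2 and Cyp4f16, lay on the opposite side on 20 of 24 arrays, and Cyp2d10 and Cyp2d12 on 18. Cyp2s1, Cyp3a13, Cyp4f13, Cyp4f14 and Cyp7b1 lay on the same side as Osr2 on 18 arrays. These counts describe the arrays and carry no test. The labels do not say which length of the colon was taken, and its part in these values was not tested.

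With the Osr2 level as a covariate, an alternative chosen after seeing the data, the naproxen differences of the wide-ranging genes were smaller. Osr2 itself averaged 12.1 on naproxen and 9.43 on vehicle arrays, so the covariate and the treatment overlap. A covariate that differs between the groups takes up part of their difference, and the cause of the smaller values was not tested. Cyp2c65 then differed by -0.09 ± 0.41, Cyp4b1 by -0.13 ± 0.24, Cyp2d12 by 0.00 ± 0.57 and Cyp2f2 by 0.03 ± 0.48 (SE). Cyp2d34 differed by -0.55 and Cyp2c67 by -0.24, and Cyp2d26 by -0.29, the opposite direction to its value without the covariate. Cyp39a1 differed by -0.15 ± 0.07, and Cyp2s1 between ATB-346 and vehicle by 0.19 ± 0.08, both close to their values without the covariate. Limma called 0 of 24 P450 genes in each of the 4 comparisons with this covariate. An unadjusted p under 0.05 was found for 1 (Cyp2s1) in ATB-346 against vehicle, beside 8.41% of targets, 2 (Cyp39a1 and Cyp2d40) in naproxen against vehicle, beside 6.54%, 1 (Cyp3a13) in ATB-346 against naproxen, beside 7.24%, and 1 (Cyp2j9) in the genotype comparison, beside 6.74%.

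**Figure D4:**
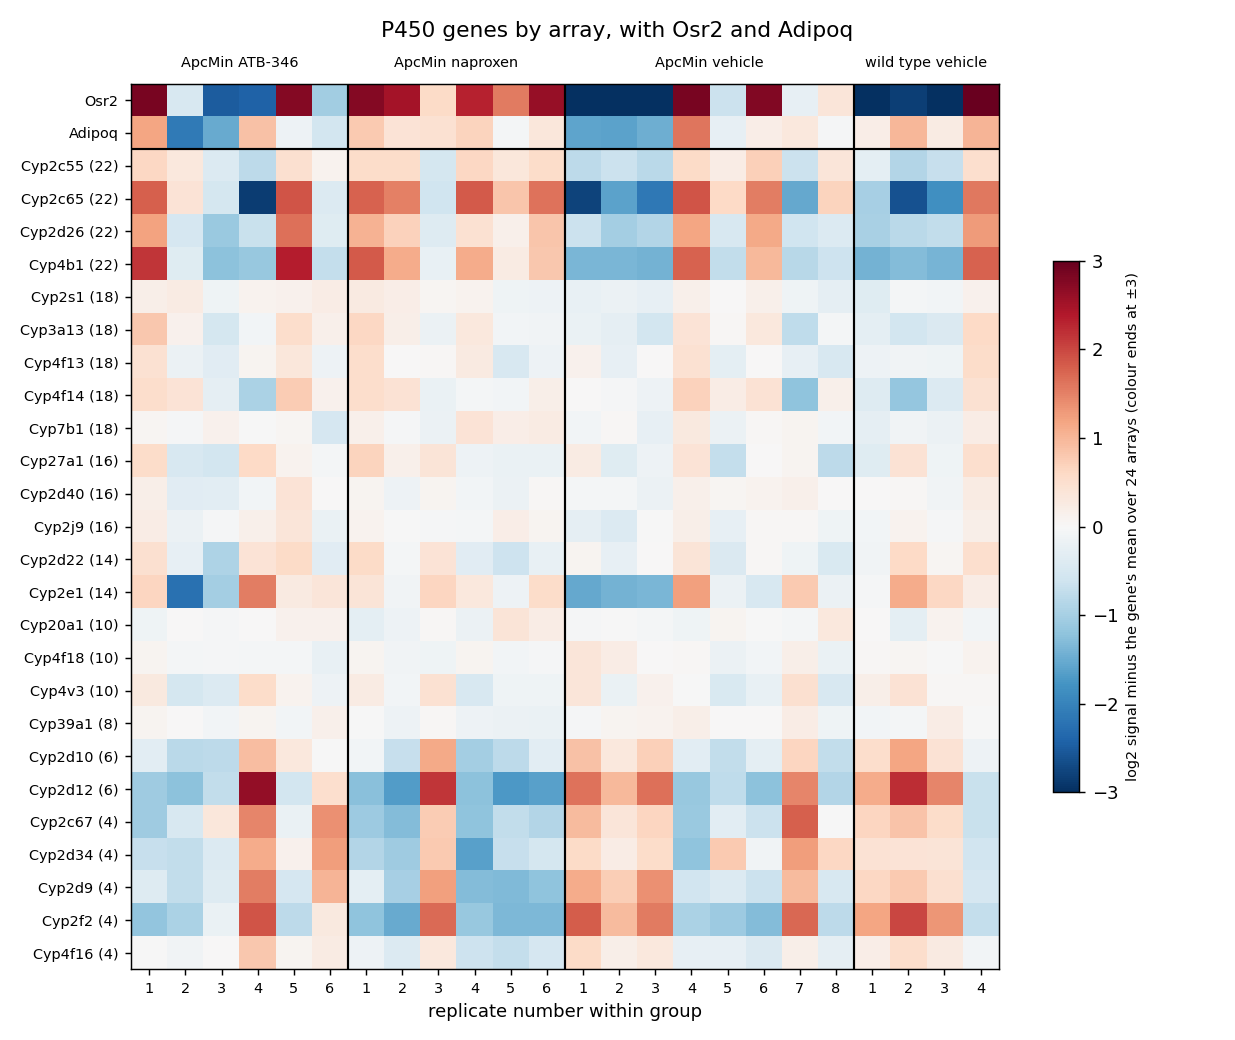
Level of 25 P450 genes on each array as log2 signal minus the gene's mean over the 24 arrays (red higher, blue lower), below the same for Osr2 and Adipoq; columns are arrays in their groups, and the number after a gene is the number of arrays on which it lay on the same side of its median as Osr2. The genes run from 22 arrays at the top to 4 at the bottom, and naproxen array 3 and wild type array 4 look unlike the other arrays of their groups.

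Cyp2e1 followed another gene. It lay on the same side of its median as Adipoq, the adipocyte hormone gene, on 20 of 24 arrays, and fat is a known site of Cyp2e1 expression. Of 7 measured adipocyte markers, 4 lay above background on all arrays, and the log2 of their summed signal ran from 10.49 to 13.48 on ATB-346, 12.26 to 13.24 on naproxen, 11.04 to 14.11 on vehicle and 12.64 to 13.46 on wild type arrays. The 4 were all higher after naproxen than after vehicle (median 0.62) and all lower in ApcMin vehicle than in wild type (median -0.64), with 0 at an unadjusted p under 0.05. Adipoq itself was lowest on ATB-346 array 2 (7.23) and on ATB-346 array 3 and vehicle arrays 1, 2 and 3 (7.75 to 7.90), and Cyp2e1 was lowest on the same 5 arrays, at 6.72 to 7.96. The part of adipose RNA in the Cyp2e1 differences was not tested.

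**Figure D5:**
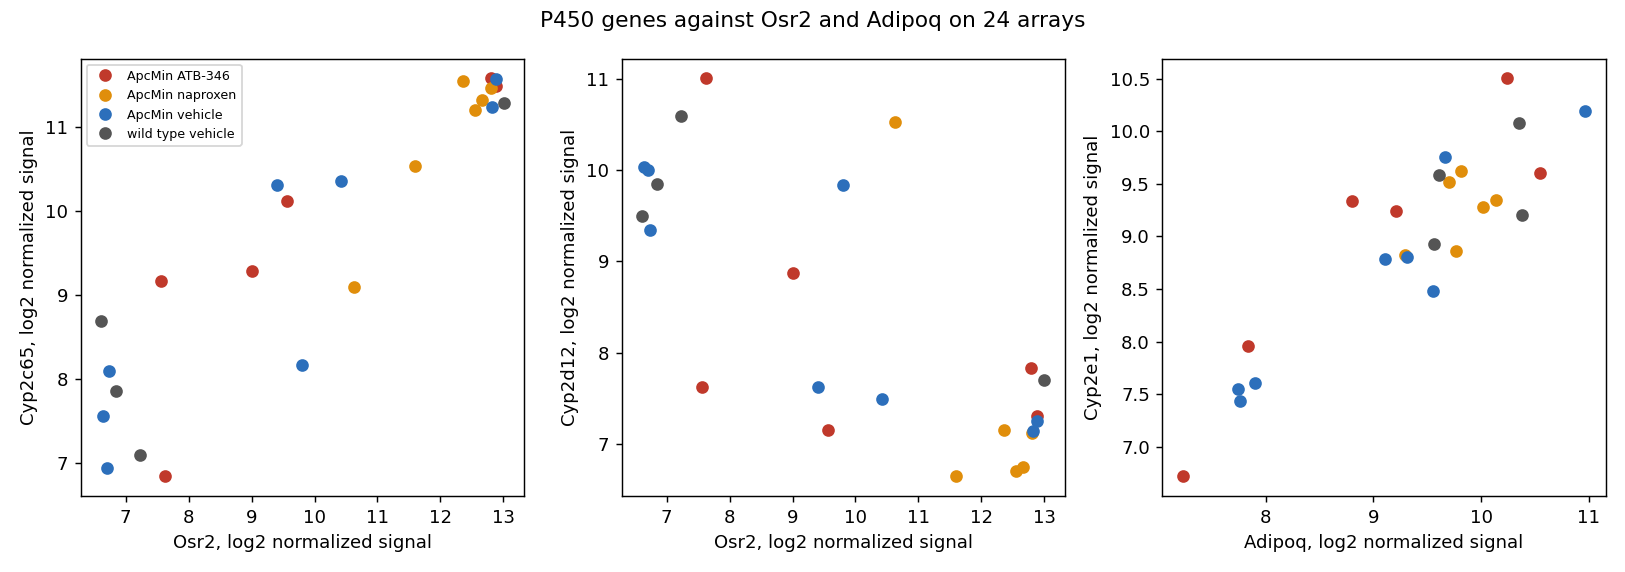
Each point is 1 of the 24 arrays, coloured by group: Cyp2c65 and Cyp2d12 against Osr2, and Cyp2e1 against Adipoq, all as log2 normalized signal. Arrays with Osr2 above 12 have Cyp2c65 above 11 and Cyp2d12 under 8 in every group, and the 5 arrays with Adipoq under 8 have Cyp2e1 under 8.

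The genes that serve or accompany P450 enzymes were counted from lists. Of 15 tested redox partner and haem synthesis genes, 0 were called by limma in any of the 4 comparisons, and 0, 1, 3 and 0 had an unadjusted p under 0.05 in ATB-346 against vehicle, naproxen against vehicle, ATB-346 against naproxen and ApcMin vehicle against wild type. Por, the reductase, averaged 8.89 ± 0.32 on ATB-346, 9.05 ± 0.28 on naproxen, 8.83 ± 0.37 on vehicle and 8.76 ± 0.38 on wild type arrays (SD). Hmox1, which breaks haem down, averaged 0.83 higher on naproxen than on vehicle arrays (unadjusted p = 0.0254, limma adjusted p = 0.564), but its medians were 6.91 and 6.83, and HMOX1 signal was well above the vehicle range only on naproxen arrays 4 and 6 (8.93 and 9.72). Of 14 tested regulators 0 were called and 0 had an unadjusted p under 0.05 in any comparison. Nr1i2 lay above background on all arrays, with means of 8.68, 8.63, 8.72 and 8.83 in ATB-346, naproxen, vehicle and wild type. Nr1i3 lay above it on 3 of 6, 1 of 6, 5 of 8 and 2 of 4 arrays of these groups, and Ahr on none.

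Of 40 tested conjugating and other foreign compound enzymes 0 were called by limma in any comparison. After naproxen 6 were higher and 1 lower at an unadjusted p under 0.05 against vehicle, beside 5.82% and 2.91% of targets. Gsta1 and Gsta4, glutathione transferases, were higher by 1.55 ± 0.55 and 0.76 ± 0.30, Ces3, a carboxylesterase, by 1.00 ± 0.40, and Sult2b1, a sulfotransferase, differed by -0.34 ± 0.10 (SE; limma adjusted p = 0.545, 0.564, 0.564 and 0.471). Gsta1 ran from 9.54 to 13.28 on naproxen (median 10.81) and from 8.77 to 11.33 on vehicle arrays (median 9.86), so the groups overlapped. The median of the list was 0.16, against 0.01 over all tested targets. After ATB-346 the list had 31 genes higher and 9 lower than vehicle, at a median of 0.07, with 0 at an unadjusted p under 0.05.

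Cyp51, the sterol demethylase of cholesterol synthesis, is a P450 gene whose name has no subfamily letter and so was not among the 73. It lay above background on all arrays and averaged 10.06 ± 0.43 on ATB-346, 9.49 ± 0.25 on naproxen, 9.92 ± 0.37 on vehicle and 9.59 ± 0.30 on wild type arrays (SD). It differed by -0.43 ± 0.18 between naproxen and vehicle and by 0.56 ± 0.19 between ATB-346 and naproxen (SE; limma adjusted p = 0.564 and 0.71).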

How the data were processed

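RNA of 24 mouse colon samples was labelled with biotin and hybridised to Illumina MouseRef-8 arrays, per the labels. The deposited gene table gives the intensity of 18097 targets on a linear scale. Per the file headers, GenomeStudio 1.7.0 wrote it and no normalization was applied. The headers do not say whether a background was subtracted. The deposited series matrix gives the intensity of 25697 probes. For the 53 P450 genes it covers with 1 probe, the matrix matched the gene table within 0.05 units in 100% of cases. It served as an alternative and for the values by probe.

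Intensities were corrected with limma's normexp (offset 50), quantile-normalized and set to log2. Quantile normalization hides changes in total RNA, and the offset shrinks changes of dim genes. Targets with a mean above the median of target means were tested, 9048 of 18097, in 1 linear model with a mean per group (lmFit and eBayes, limma 3.58.1, R 4.3.3). Genes with an adjusted p under 0.05 (Benjamini-Hochberg, over all tested targets) were called. No detection p-values were used, and chemoreceptor targets set the background line. Precision is limited by how many arrays each group has. The fit was run on shuffled residuals with shifts planted in targets drawn at random. That run was not made for the P450 genes, so it does not give the power for them. Groups and replicate numbers come from the sample titles.

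Every P450 gene is accounted for, each one above background on all arrays of a group is named, and values by sample are given for genes with an unadjusted p under 0.05 in any comparison, with or without the number block, and for the 6 with the largest range. Of each other list up to 4 genes are named by smallest p, with Por, Ahr, Nr1i2 and Nr1i3 always. The members, lists and rules were chosen with earlier results of these data known. Samples with the same replicate number were compared by the correlation of their deviations from the group means. For ApcMin vehicle and wild type it was 0.118, 0.305, 0.375 and 0.673 for numbers 1 to 4. There are no such values for arrays with different numbers, so these cannot show whether the numbers pair arrays. The replicate number was used as a block only as an alternative. Alternatives were another offset, no background correction, median scaling, no filter, the series matrix, blocks by number, number ranges apart, the groups compared alone, each array left out, other background lines and the Osr2 covariate.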

Additional observations from a re-analysis of the deposited data

Results flagged for a closer look

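In each group the highest or lowest array was set against its neighbours by Dixon's criterion at the 95% level, for the 25 P450 genes above background on all arrays of a group. Of 100 groups of values 11 held an array that stood apart. The criterion marks about 1 in 20 groups of independent values, but these genes share their arrays and vary together. The count was not tested for an excess.

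Naproxen array 3 stood apart for 4 genes. It had Cyp2c55 at 13.45 (the other naproxen arrays were at 14.33 or more), Cyp2c67 at 8.415 (the others at 6.919 or less), Cyp2d12 at 10.53 (7.153 or less) and Cyp2f2 at 9.202 (6.355 or less). Osr2 lay at 10.63 on this array, the lowest level in the naproxen group. Wild type array 4 stood apart for 4 genes too. It had Cyp2d26 at 9.389 (the other wild type arrays were at 7.378 or less), Cyp4b1 at 9.699 (6.646 or less), Cyp4f13 at 10.76 (10.11 or less) and Cyp2d34 at 8.295 (9.259 or more). Osr2 lay at 13.00 on it, the highest level of all 24 arrays. The part of the Osr2-linked difference in these values was not tested.

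The other 3 arrays stood apart for 1 gene each. Cyp20a1 was at 8.309 on vehicle array 8 (8.065 or less on the others), Cyp4f14 at 10.14 on vehicle array 7 (11.21 or more) and Cyp7b1 at 6.894 on ATB-346 array 6 (7.385 or more).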

How the results depend on the processing

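Limma called 0 P450 genes in all 4 comparisons under each of up to 35 alternatives. Over the 96 P450 differences these gave 3332 values, of which 0 were called, 208 had the opposite sign to the reported value (in 60 of the 96 differences) and 7 moved by more than the replicate spread. For the 8 differences with an unadjusted p under 0.05, with or without the number block, the smallest adjusted p in any alternative lay between 0.187 and 0.33, and 1 of the 8 changed sign, that of Cyp2c65 after naproxen with the Osr2 covariate (-0.09). Leaving out 1 array at a time moved it between 1.25 and 1.93. The count of all genes called in ATB-346 against vehicle, 0 as reported, was 28 with the number range as a block, 16 in numbers 1 to 4 alone, 6 with the replicate number as a block and 1 with the series matrix. It ran from 0 to 1 with each array left out (1 without vehicle array 1 or ATB-346 array 4). Leaving out arrays gave 0 to 1 in naproxen against vehicle (1 without ATB-346 array 1) and in ATB-346 against naproxen (1 without ATB-346 array 2). The causes were not tested.

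The replicate block gave 0 called genes in the other 3 comparisons. Same-numbered arrays correlated between -0.316 and 0.51 in ATB-346 against vehicle and between -0.217 and 0.688 in naproxen against vehicle. In ATB-346 against naproxen they correlated between -0.101 and 0.552. These values alone cannot show whether the numbers pair arrays there. The count of P450 genes above background on all arrays ran from 19 to 25 over the alternatives: 21 with the 99th percentile (Cyp2c67 and Cyp2d40 lost), 19 with the median of all targets as the line and 24 with the series matrix or without ATB-346 array 6. Dim genes are limited by the floor of the signal, and with 4 to 8 arrays a group the wide P450 intervals bound few differences.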

Other observations

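Probes of 1 gene differed for some P450 genes. Of 71 P450 genes with a probe in the series matrix 18 had several, 97 probes in all. Cyp11b2, the aldosterone synthase gene of the adrenal cortex, had 1 probe above background on 23 arrays (6.15 to 6.64) and 1 on 0 arrays. Cyp4f18 had 3 probes, above background on 24, 24 and 9 arrays, so the averaged gene value hides signal that 2 probes carried on every array. The 3 probes of the sterol hydroxylase gene Cyp27a1 were each above background on 24 arrays and differed by 0.17, 0.20 and 0.19 between ATB-346 and vehicle and by 0.22, 0.32 and 0.27 between naproxen and vehicle. The 3 probes of Cyp2d26 differed by 0.65, 0.75 and 0.65 between naproxen and vehicle.

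Cyp2d13, the 1 Cyp2d gene not above background on all arrays, was not found among the protein-coding genes of RefSeq. It lay above background on 8 arrays, with a highest level of 6.66 on ATB-346 array 4, the array with the highest Cyp2d12.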
